A study of Mus musculus with 6 samples.

Results

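The genes described are those of the nuclear genome that carry an oxidative phosphorylation name on this array. They were taken by symbol from the authors' deposited table: every name that begins with Ndufa, Ndufb, Ndufc, Ndufs, Ndufv, Uqcr, Cox4 to Cox8 or Atp5, together with Sdha, Sdhb, Sdhc and Sdhd. This gave 86 genes among 21089 rows fitted, with 1 probe per gene, the brightest over the arrays. Of the 86 genes, 79 encode subunits, namely 36 of complex I, 4 of complex II, 8 of complex III, 16 of complex IV and 15 of complex V. The other 7 share a prefix without being subunits: the complex I assembly factors Ndufaf1, Ndufaf2, Ndufaf3 and Ndufaf4, the Cox4i1 neighbour Cox4nb, and Atp5s and Atp5sl. Ndufa4 and its paralogue Ndufa4l2 were counted with complex IV, to which NDUFA4 is now assigned. Cox7a2l was left in complex IV by its prefix, although its protein is known as an assembly factor of respiratory supercomplexes.

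RNA came from the dorsal forebrain (dorso-medial pallium in the series' design text) of 6 single mouse embryos at E11.5, 3 of the genotype labelled control and 3 labelled mutant, and was hybridised to Agilent 1-colour arrays. The labels name neither the mutated gene, its allele nor the strain, while the title of the series concerns Wnt/b-catenin signalling and fate decisions of cortical precursors. Each mutant had a control from its own litter, and the numbers 1, 2 and 3 of the embryos are those of the litters. The arrays of litter 1 were on slide 1 and those of litters 2 and 3 on slide 2. A level is the log2 of a signal over the array's own 75th percentile, a difference is mutant minus control, and 3 embryos a group limit the precision of every value. Between 65.75% and 70.1% of the 43020 spots of an array were well above background, the 75th percentile of signal was 1446.2 to 1833.2 in the controls and 1206.9 to 1380.2 in the mutants, and 0 spots were saturated. All 10 radial glia, all 12 neuron and all 6 basal progenitor markers listed were well above background on all 6 arrays.

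Oxidative phosphorylation is carried out by complexes embedded in the inner mitochondrial membrane. Complexes I and II pass electrons from NADH and succinate to ubiquinone, complex III passes them on to cytochrome c, and complex IV to oxygen, while complexes I, III and IV pump protons. Complex V, the ATP synthase, uses the proton gradient to make ATP. All complexes except complex II combine subunits from the nucleus with subunits made inside the mitochondrion from mitochondrial DNA. Early cortical progenitors are generally described as strongly glycolytic, with more reliance on respiration as neurons form.

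Transcripts of the 79 subunits differed little between mutant and control forebrain, and none passed the test. All 86 genes were well above background on all 6 arrays, so none was lost to the filter on dim probes. None of the 86 passed the fit over all rows (limma, Benjamini-Hochberg adjustment, threshold 0.05, two-sided), against 0.00948% of the 21089 rows in the higher direction and 0.0237% in the lower direction (2 and 5 rows; 0 rows in all with litter as a block). At an unadjusted p under 0.05, 1 of the 86 genes was higher (Ndufaf3), beside 9.49% of all rows, and 2 were lower (Ndufaf4 and Ndufaf2), beside 7.44% of all rows. None of those 3 encodes a subunit, and 0 of the 79 subunits reached that unadjusted level in either direction.

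The intervals bound how large a difference could have gone unseen. For 78 of the 79 subunits the 95% interval of the difference, taken singly, lay within 0.5 log2 units of 0 on either side, whereas this held for 55.1% of all rows. The exception was Cox6b2, whose interval reached 0.657, and the lowest bound was -0.401, for Ndufs7. The median difference of the 79 subunits was 0.029, beside 0.025 over all rows, and 54 of the 79 differences were above 0, beside 55.0% of all rows. The median absolute difference was 0.055 for the subunits and 0.143 for all rows. Subunit probes were bright, with a median level of 4.33 beside -1.10 for all rows. In the 1057 other rows that lay between the quartiles of the subunit levels, 3.52 and 4.89, the median absolute difference was 0.098. The median difference of those rows was -0.036, below the 0.029 of the subunits and the 0.025 of all rows. An absolute difference over 0.2 was measured for 1 subunit (1.27%) and for 22.1% of those rows of like brightness. The middle of all differences depends on the scaling: with the median spot in place of the 75th percentile, which lowers every difference by the same amount, 16 instead of 55 of the 86 differences were above 0, and the medians were -0.059 for the subunits and -0.063 for all rows. Relative to the median of all rows, 41 subunits lay above and 38 below, a split that median scaling leaves as it is by construction. With other normalizations this split moved to 60 above and 19 below (quantile), 58 and 21 (cyclic loess) and 15 and 64 (normexp), so that no side of the median can be given for the subunits. Counts above 0 are therefore given below with the count under median scaling beside them.

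**Figure D1:**
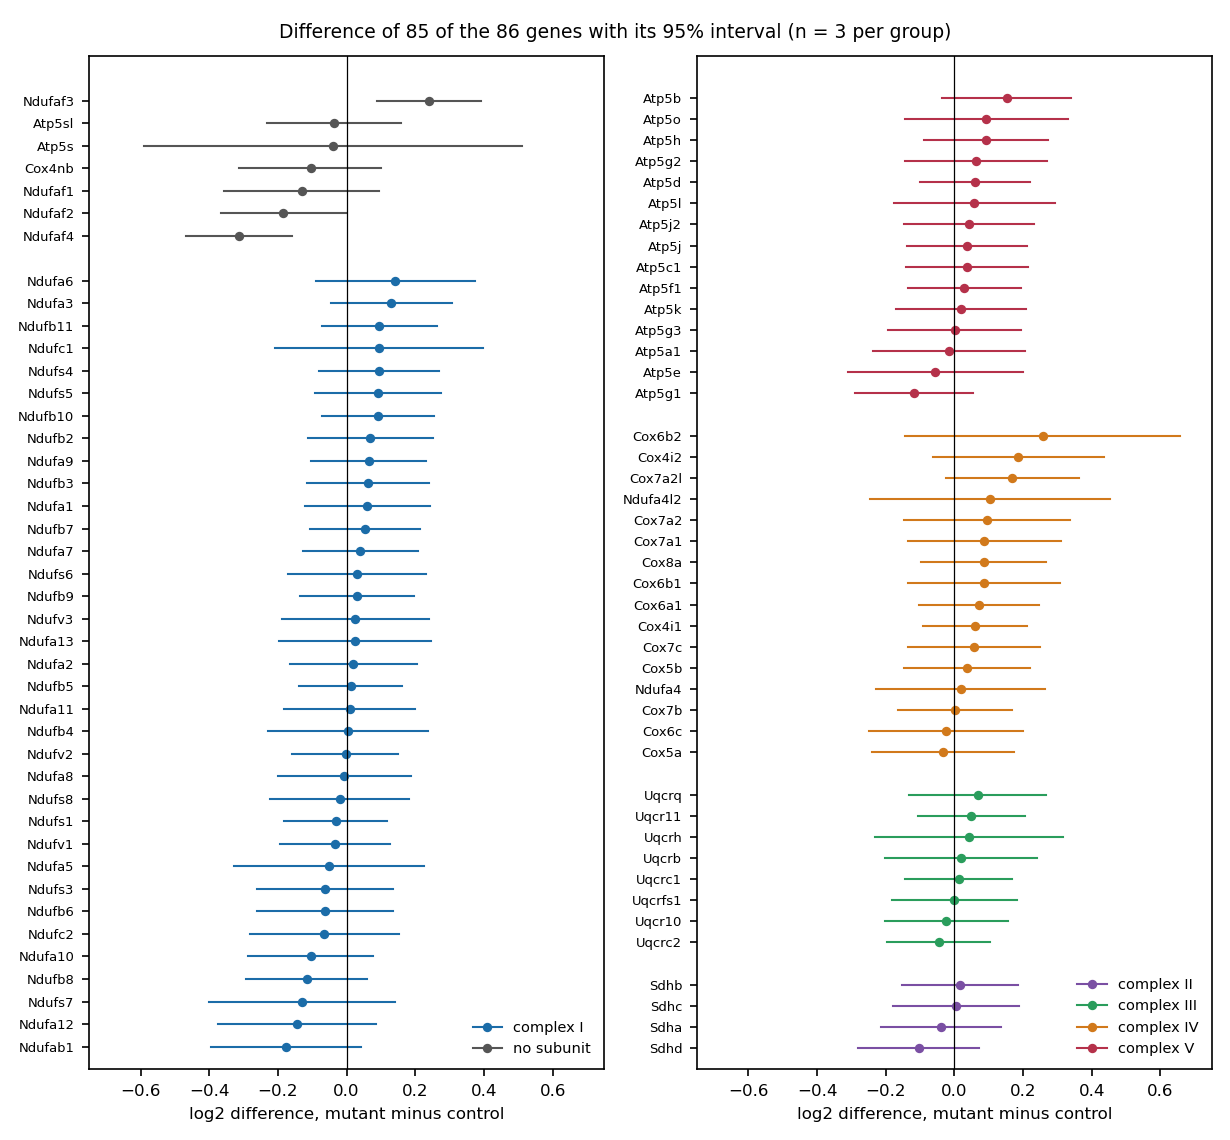
Log2 difference, mutant minus control, of 85 of the 86 genes (points) with its 95% interval from limma (lines), 3 embryos a group, coloured by complex. The intervals of all subunits drawn cross 0, while those of Ndufaf4, Ndufaf2 and Ndufaf3 do not.

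**Figure D2:**
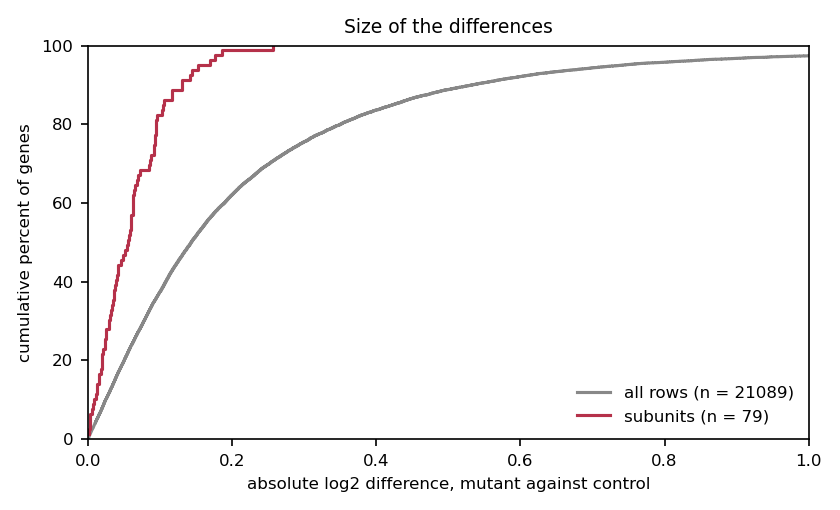
Cumulative percent of genes (vertical axis) up to each absolute log2 difference (horizontal axis, shown up to 1) for the 79 subunits and for all 21089 rows. The subunit curve reaches its end at 0.257, and the medians are 0.055 and 0.143.

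Complex I, the NADH dehydrogenase, had 21 of its 36 measured differences above 0 (7 with median scaling), with a median of 0.016 and a range from -0.176 to 0.141. Its core subunits carry the flavin and the iron-sulphur clusters. The 6 nuclear core genes reported here had differences from -0.130 (Ndufs7) to -0.00325 and a median of -0.033, with 0 above 0 (0 with median scaling and normexp, 1 with quantile and 1 with cyclic loess), and the intervals of all 6 included 0. The accessory subunits surround the core and steady it. Those named Ndufb, in the membrane arm, had 8 of 10 differences above 0 (2 with median scaling) and a median of 0.042, and those named Ndufa had 8 of 13 above 0 (2 with median scaling) and a median of 0.020. The accessory subunits Ndufs4, Ndufs5 and Ndufs6 lay at 0.094, 0.092 and 0.031, each with an interval across 0.

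Of the complex I subunits, Ndufab1 had the smallest p. It encodes the mitochondrial acyl carrier protein, which also serves in fatty acid and lipoate synthesis. Its level was 0.60, 0.60 and 0.74 in controls 1 to 3 and 0.50, 0.35 and 0.57 in mutants 1 to 3. All 3 mutants lay below all 3 controls, with a difference of -0.18 (SE 0.089, limma, adjusted p = 0.379). Ndufa3, an accessory subunit of the membrane arm, was at 4.40, 4.55 and 4.52 in the controls, against 4.60, 4.60 and 4.66 in the mutants. These groups did not overlap either, and the difference was 0.13 (SE 0.071, adjusted p = 0.411, limma), but a second probe of Ndufa3 read -0.049. Ndufb8, whose protein is widely used to judge complex I assembly, differed by -0.12 (95% interval -0.292 to 0.0596), and Ndufa12, a peripheral accessory subunit, by -0.14 (-0.374 to 0.0862).

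Complex II, succinate dehydrogenase, belongs to the tricarboxylic acid cycle as well and is built from nuclear genes alone. The catalytic flavoprotein Sdha differed by -0.038 (95% interval -0.214 to 0.137) and the iron-sulphur subunit Sdhb by 0.016 (-0.153 to 0.184). The membrane anchors Sdhc and Sdhd differed by 0.0049 (-0.179 to 0.189) and -0.10 (-0.281 to 0.0726). Sdhd was at 3.81, 3.95 and 3.90 in controls 1 to 3, against 3.79, 3.73 and 3.81 in mutants 1 to 3, and the groups overlapped by the values of control 1 and mutant 3. The median of the 4 genes was -0.017.

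Complex III, the cytochrome bc1 complex, showed the narrowest range, from -0.046 to 0.068 over its 8 genes, of which 5 were above 0 (0 with median scaling), with a median of 0.016. The core proteins Uqcrc1 and Uqcrc2 lay at 0.013 and -0.046, and the Rieske iron-sulphur protein Uqcrfs1 at -0.00097. Uqcrc2 was at 4.06, 4.08 and 4.09 in the controls, against 4.06, 4.01 and 4.02 in the mutants. Its mutants all lay below its controls, yet control 1 and mutant 1 were apart by less than the SE of the difference, 0.061. The small subunits Uqcrq, Uqcr11 and Uqcrh differed by 0.068, 0.049 and 0.042, each with an interval across 0.

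Complex IV, cytochrome c oxidase, had 14 of its 16 differences above 0 (5 with median scaling, 13 to 15 with the other normalizations) and the highest of the complex medians, 0.079. Relative to the median of all rows, 12 lay above and 4 below. This split was 15 and 1 with quantile, 14 and 2 with cyclic loess, and 6 and 10 with normexp. The side of that median thus depends on the normalization for complex IV too. Cox6b2, known from testis, had the largest difference, 0.26 (SE 0.16, limma, adjusted p = 0.467). It was at -1.44, -1.63 and -1.51 in controls 1 to 3, against -0.99, -1.23 and -1.59 in mutants 1 to 3. Mutant 3 lay among the controls, and mutants 1 and 2 above them. Cox7a2l was at 4.80, 4.95 and 4.87 in the controls, against 4.96, 5.10 and 5.06 in the mutants. The groups met without crossing, and the difference was 0.17 (SE 0.079, adjusted p = 0.35, limma). Cox4i1, the ubiquitous form of subunit 4, was at 5.18, 5.17 and 5.12 in the controls, against 5.21, 5.20 and 5.24 in the mutants, a difference of 0.060 (95% interval -0.0923 to 0.212).

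Complex IV also holds pairs of paralogues with different tissue patterns. Cox4i2, known from lung, differed by 0.19 (SE 0.10) beside 0.060 for Cox4i1. Cox6b1, the ubiquitous partner of Cox6b2, differed by 0.085, and Cox6a1, the form outside heart and muscle, by 0.072. Cox7a1, the heart and muscle form, and Cox7a2, the form of most other tissues, differed by 0.087 and 0.095. Cox7b and Cox8a, the general forms of their subunits, differed by 0.0026 and 0.085. Ndufa4 differed by 0.018, and Ndufa4l2, known as a target of hypoxia-inducible factor, by 0.10 (SE 0.14). Probes for Cox7b2, Cox8b and Cox8c, found on the array outside the authors' table, were well above background on 0 of 6 arrays, and that for Cox6a2 on 1 control array. All these intervals included 0.

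Complex V had 12 of its 15 differences above 0 (3 with median scaling), with a median of 0.037. In the F1 head, Atp5b, the catalytic beta subunit, was at 6.46, 6.65 and 6.62 in controls 1 to 3, against 6.71, 6.74 and 6.74 in mutants 1 to 3. The mutants lay close together above all controls, and control 1 was the lowest, for a difference of 0.15 (SE 0.076, limma, adjusted p = 0.378). Its partner Atp5a1, the alpha subunit, differed by -0.015 (95% interval -0.238 to 0.207). All 4 genes of the peripheral stalk, which holds the head still, had differences above 0 (2 with median scaling and 3 with normexp), among them Atp5h at 0.093 and Atp5o at 0.093. The c ring, which turns as protons pass, is encoded by 3 genes for the same mature protein. Of these, Atp5g1 was at 5.06, 5.16 and 5.20 in the controls, against 5.05, 5.01 and 5.01 in the mutants, with all mutants lower and a difference of -0.12 (SE 0.070, adjusted p = 0.446, limma). Atp5g2 and Atp5g3 differed by 0.063 and 0.0016. Atp5k is the one gene whose probe the array annotation places on another chromosome (Y) than RefSeq places the gene (5), so its value may include a copy.

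Over the 86 genes, the groups did not overlap for 9 with all mutants higher and for 7 with all mutants lower, beside 12.9% and 11.9% of all rows. Among the subunits these counts were 8 and 5 of 79. On the higher side were 3 genes of complex I, 1 of complex III, 2 of complex IV (Cox4i1 and Cox7a2l) and 2 of complex V (Atp5b and Atp5h). On the lower side were 3 of complex I, 1 of complex III and 1 of complex V. As shares of the 86 genes and of the 79 subunits, the total counts lie under those of all rows.

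In the median of every complex, control 1 was the lowest control, mutant 2 the lowest mutant and mutant 3 the highest mutant, while the order of controls 2 and 3 was turned in complex II. Control 1 was the lowest control for 60 of the 79 subunits (75.9%), beside 39.0% of all rows, and mutant 2 was the lowest mutant for 54 (68.4%), beside 31.7%. Mutant 3 was the highest mutant for 49 subunits (62.0%), beside 37.2% of all rows. The median deviation of the complex I subunits from their control means was -0.038, 0.002 and 0.039 in controls 1 to 3 and 0.031, -0.052 and 0.075 in mutants 1 to 3. That of the complex V subunits was -0.066, 0.022 and 0.048 in the controls and 0.062, -0.036 and 0.074 in the mutants. In complexes I, II, III and V the 2 groups of embryo medians overlapped. In complex IV they did not: -0.057, 0.014 and 0.031 in the controls against 0.061, 0.040 and 0.080 in the mutants.

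The distance for complex IV was largest in litter 1. Its median difference was 0.131 on slide 1, which held control 1 and mutant 1, and 0.041 on slide 2, which held the other 4 embryos. Without control 1 it was 0.040. For all subunits the medians were 0.086 on slide 1 and 0.005 on slide 2, beside 0.011 and 0.025 for all rows. Control 1 was also the array with the highest 75th percentile of signal, and the part of the array, the slide or the litter in its place among the controls was not tested.

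**Figure D3:**
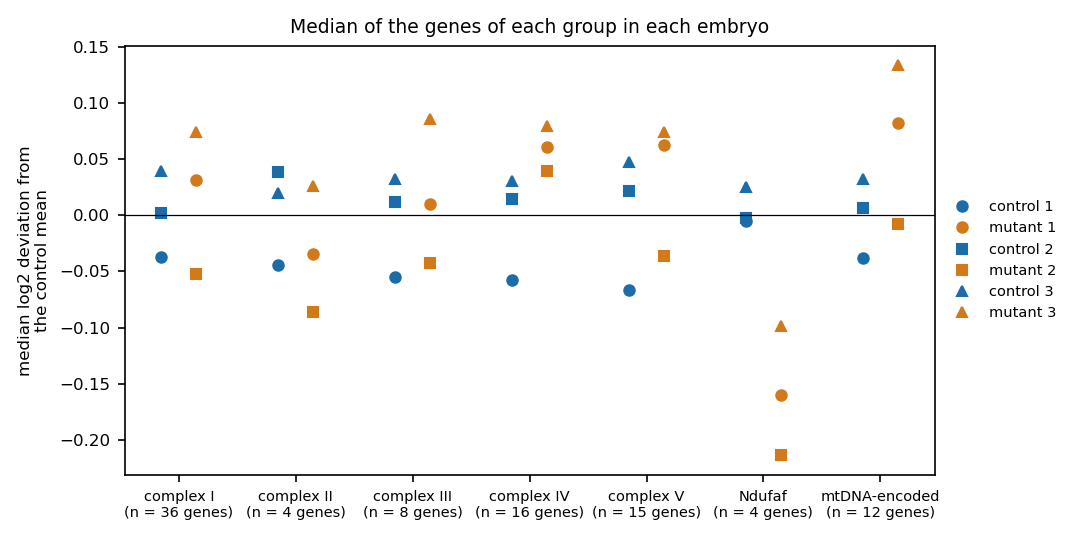
Median log2 deviation from the control mean (vertical axis) of the genes of each complex, of the 4 Ndufaf genes and of the 12 subunits encoded in mitochondrial DNA, in each embryo; colour gives the group and shape the litter. Control 1 is the lowest control in every group shown, and the mutant and control points are apart for complex IV and for the Ndufaf genes.

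The 3 genes of smallest p among the 86 encode assembly factors of complex I, which help to build the enzyme and are absent from the finished complex. Ndufaf4, which acts in the assembly of the arm that projects into the matrix, was at 1.78, 1.78 and 1.75 in controls 1 to 3, against 1.504, 1.43 and 1.44 in mutants 1 to 3. The groups were well apart, with a difference of -0.31 (SE 0.063, 95% interval -0.469 to -0.158, limma, adjusted p = 0.148). A second probe of the gene gave -0.294. Ndufaf2, an assembly factor that resembles Ndufa12, was at 1.79, 1.86 and 1.93 in the controls, against 1.61, 1.68 and 1.74 in the mutants, so that each mutant lay below every control and the difference was -0.18 (SE 0.074, adjusted p = 0.294, limma). Ndufaf1, which acts on an intermediate of the membrane arm, differed by -0.13 (95% interval -0.356 to 0.0945) with overlapping groups.

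Ndufaf3, which works together with Ndufaf4, lay on the other side. It was at 0.060, 0.029 and 0.015 in controls 1 to 3, against 0.26, 0.26 and 0.30 in mutants 1 to 3. The 3 mutants were close to each other and above all controls, with a difference of 0.24 (SE 0.061, 95% interval 0.0884 to 0.391, limma, adjusted p = 0.19). On slides 1 and 2 taken alone, Ndufaf4 differed by -0.276 and -0.332, Ndufaf2 by -0.179 and -0.186, and Ndufaf3 by 0.201 and 0.259. The adjusted p of Ndufaf4 ranged from 0.0659 to 0.501 over the other settings with a test, so the gene passed in none. In the authors' deposited table the log2 ratios were -0.262 for Ndufaf4 and 0.207 for Ndufaf3, with p-values of 0.00989 and 0.0201 and no fdr given. The remaining non-subunits, Cox4nb, Atp5s (the coupling factor B) and Atp5sl, differed by -0.11, -0.040 and -0.037, each with an interval across 0. The probe of Ndufaf4 lies at chr4:24829194-24829253 on the plus strand, that of Ndufaf3 spans chr9:108468692-108468899 and that of Ndufaf2 lies at chr13:108843015-108843074, both on the minus strand, in the mm9 annotation of the array. Exons and UTRs of that build were not used here.

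**Figure D4:**
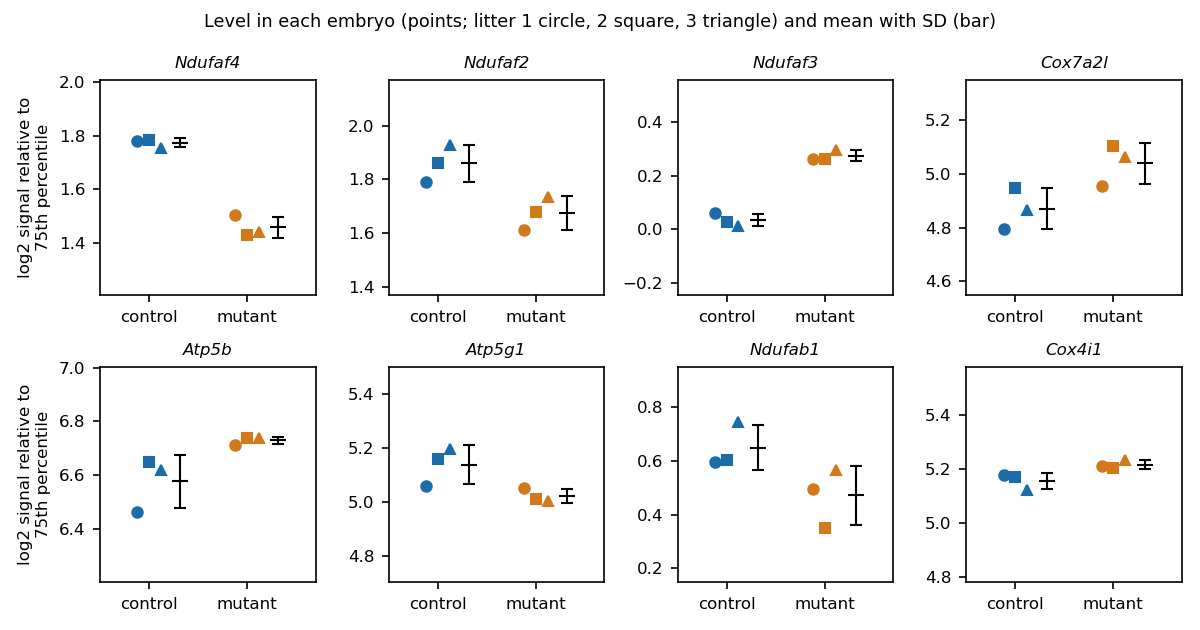
Log2 signal relative to the 75th percentile of the array (vertical axis, spanning 0.8 units in every panel) of 8 genes in each embryo, with the mean and SD of the 3 embryos a group beside the points. The controls and mutants of Ndufaf4, Ndufaf2 and Ndufaf3 do not overlap, and in Atp5b control 1 lies under the other controls.

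Promoters of respiratory genes are known for binding sites of NRF1, of the ETS factor GABPA and of YY1, and TCF/LEF factors carry the signal of beta-catenin to DNA. Their core letters were searched in RefSeq windows of 300 bases (GRCm38.p6), 250 before and 50 after each start, which were found for 72 of the 86 genes. The NRF1 letters GCGCATGC, or GCATGCGC on the other strand, stood in the windows of 11 of the 72 genes (15.3%) and of 3.05% of all 27025 genes. The YY1 letters AAGATGGC or GCCATCTT also stood in 11 (15.3%), beside 3.19% of all genes. The GABPA letters CCGGAAGT or ACTTCCGG stood in 5 (6.94%), beside 4.31%. The TCF/LEF letters CTTTGAT or CTTTGAA, or ATCAAAG or TTCAAAG, stood in 3 (4.17%; Ndufa5, Ndufb11 and Ndufs6), beside 9.88%. These are matches of letters, with no test and no measure of binding.

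The 250 bases before the start of 5 genes are shown, chosen after their values were seen, to set the 2 genes of smallest p among the 86, both assembly factors, beside subunits whose differences were small. Capitals mark the NRF1 letters, which overlap as a palindrome in Ndufaf4, Cox6a1 and Atp5g2, and the GABPA letters in Uqcr11. The windows of Ndufaf4 and Uqcr11 also hold an NRF1 match that ends after the start and is not marked. It runs from base 252 to 259 of the window in Ndufaf4 and from 247 to 254 in Uqcr11. Ndufaf3 holds none of the 4 motifs. The windows are chr4:24897833-24898082 (plus strand) for Ndufaf4, chr9:108567437-108567686 (minus) for Ndufaf3, chr5:115348959-115349208 (minus) for Cox6a1, chr15:102671048-102671297 (minus) for Atp5g2 and chr10:80406822-80407071 (minus) for Uqcr11, in GRCm38.p6.
Ndufaf4: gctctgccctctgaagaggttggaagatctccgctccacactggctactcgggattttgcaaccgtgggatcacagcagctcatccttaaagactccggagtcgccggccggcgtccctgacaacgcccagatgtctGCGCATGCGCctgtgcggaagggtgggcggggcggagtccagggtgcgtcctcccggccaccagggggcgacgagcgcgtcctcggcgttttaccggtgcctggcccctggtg
Ndufaf3: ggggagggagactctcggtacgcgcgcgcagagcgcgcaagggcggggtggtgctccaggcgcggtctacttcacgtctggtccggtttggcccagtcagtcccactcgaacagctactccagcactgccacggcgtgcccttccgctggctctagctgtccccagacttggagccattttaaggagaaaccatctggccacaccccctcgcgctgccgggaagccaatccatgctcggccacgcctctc
Cox6a1: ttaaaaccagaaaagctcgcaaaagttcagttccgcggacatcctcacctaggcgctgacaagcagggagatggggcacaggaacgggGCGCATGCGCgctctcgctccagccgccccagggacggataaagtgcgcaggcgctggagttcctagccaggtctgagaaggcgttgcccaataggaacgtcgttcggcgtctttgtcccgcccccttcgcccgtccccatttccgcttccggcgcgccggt
Atp5g2: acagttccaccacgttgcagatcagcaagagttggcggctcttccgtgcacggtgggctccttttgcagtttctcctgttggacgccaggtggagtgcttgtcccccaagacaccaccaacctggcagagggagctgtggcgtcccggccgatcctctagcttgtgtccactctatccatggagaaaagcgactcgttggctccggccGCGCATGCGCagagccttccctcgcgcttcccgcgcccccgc
Uqcr11: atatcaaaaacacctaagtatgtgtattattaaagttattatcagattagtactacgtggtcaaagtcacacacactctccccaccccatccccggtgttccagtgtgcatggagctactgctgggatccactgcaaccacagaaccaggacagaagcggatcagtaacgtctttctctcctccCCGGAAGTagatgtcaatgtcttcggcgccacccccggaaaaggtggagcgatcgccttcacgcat
The same palindrome thus stands before Ndufaf4, at a difference of -0.31, before Cox6a1, at 0.072, and before Atp5g2, at 0.063. Nrf1 itself, named here for its motif, differed by -0.015 (95% interval -0.242 to 0.212), Gabpa by -0.088 (-0.349 to 0.172) and Yy1 by 0.053 (-0.155 to 0.261).

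The other genes needed to build the chain gave the following values, on lists that include Ndufaf1 to Ndufaf4, and none of them passed the test. Of 16 complex I assembly factors matched by name (18 listed), 13 had differences below 0 (12 to 14 under the other scalings). These 16 had a median of -0.138. At an unadjusted p under 0.05 (limma), 1 was higher and 5 were lower, beside 9.49% and 7.44% of all rows. The listed Dmac2 is a later name of Atp5sl, which was not matched to this list and differed by -0.037. Tmem70, needed for assembly of complexes I and V, was at 1.69, 1.61 and 1.68 in the controls, against 1.31, 1.39 and 1.37 in the mutants. The mutants lay well under the controls, by -0.30 (SE 0.066, limma, adjusted p = 0.158). Of 31 assembly factors of complexes II to V (33 listed), 19 lay below 0 (27 with median scaling), with a median of -0.031. At the unadjusted level 0 were higher and 3 lower, and 3 of 31 lies near the share of all rows, 7.44%. These 3 serve complex IV: Cox18, which inserts the mitochondrially made COX2 into the membrane, at -0.36 (SE 0.094), the copper chaperone Sco2 at -0.26 (SE 0.087), and Taco1, a translational activator of COX1, at -0.26 (SE 0.081).

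Electron carriers and exchangers, 17 measured of 19, had a median of -0.016 and none at the unadjusted level in either direction. Slc25a5, an ADP/ATP translocase, differed by 0.18, and the ubiquinone synthesis genes Coq5 and Coq2 by -0.13 and -0.17. The 21 genes of pyruvate entry and the tricarboxylic acid cycle had a median of -0.036. Of them 0 were higher and 2 lower, near the shares of all rows for the lower side (9.49% higher, 7.44% lower). Suclg2, the GTP-forming succinyl-CoA ligase subunit, was at -0.43, -0.31 and -0.40 in the controls, against -0.82, -0.81 and -0.89 in the mutants. This was the widest gap for its spread on any of these lists, -0.46 (SE 0.070, limma, adjusted p = 0.106). Idh3a, of the NAD-dependent isocitrate dehydrogenase, differed by -0.17 and Pdhb, of pyruvate dehydrogenase, by 0.32 (SE 0.14).

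The list of mitochondrial DNA expression and biogenesis, 25 measured of 26, had a median of -0.037. At the unadjusted level 2 were higher and 5 lower, beside 9.49% and 7.44% of all rows. Ppargc1a, the coactivator PGC-1alpha that drives mitochondrial biogenesis, was at -1.03, -1.30 and -1.48 in the controls, against -0.72, -0.39 and -0.61 in the mutants. All mutants lay higher, by 0.70 (SE 0.15, limma, adjusted p = 0.154). Pprc1 and Ppargc1b, on the same list, lay the other way, with all mutants below all controls. They differed by -0.43 (SE 0.12) and -0.64 (SE 0.20), and Ppargc1b was well above background on only 1 mutant array. Twnk, the helicase that copies mitochondrial DNA, differed by -0.29 (SE 0.066), and Tfam, which packs that DNA and starts its transcription, by -0.25 (SE 0.071). Both had all mutants below all controls.

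**Figure D5:**
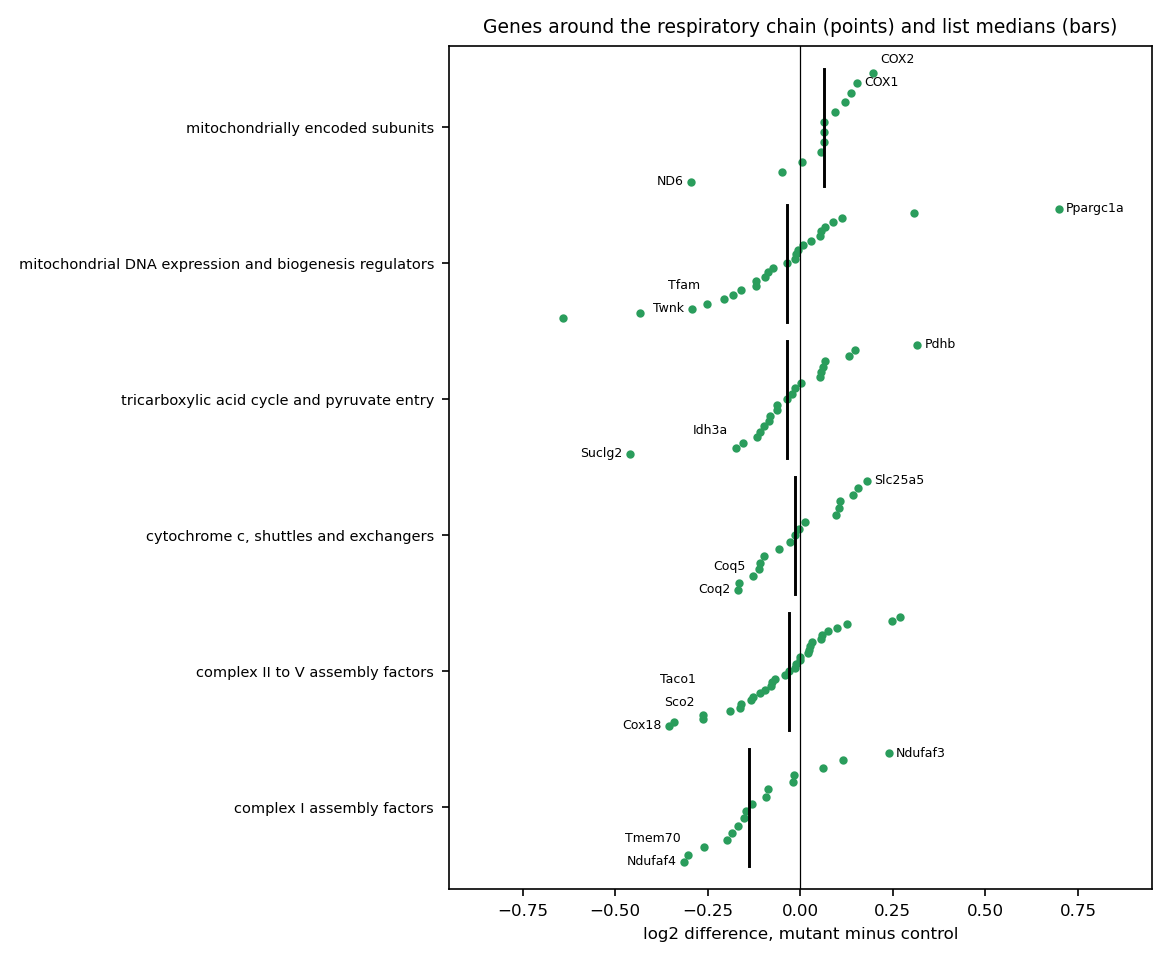
Log2 difference, mutant minus control (horizontal axis), of each gene matched by name on 6 lists (points, spread vertically within a list). A bar gives the median of the list, and the 3 genes of smallest p are named. The bar of the complex I assembly factors lies at -0.138 and that of the mitochondrially encoded subunits at 0.065.

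The subunits made in the mitochondrion are listed in the array annotation under names such as ND1 and COX1, and 12 of 13 were matched. Their median difference was 0.065, with 10 of 12 above 0 (5 with median scaling). At the unadjusted level 1 was higher and 0 lower, beside 9.49% and 7.44% of all rows, and none passed. COX2, a catalytic subunit of complex IV, was at 7.07, 7.23 and 7.23 in the controls, against 7.40, 7.33 and 7.39 in the mutants. All mutants lay above all controls, by 0.20 (SE 0.076, limma, adjusted p = 0.283), with 0.327 on slide 1 and 0.131 on slide 2. COX1, the other catalytic subunit, differed by 0.15 (95% interval -0.017 to 0.321) with the same order of groups. ND6, the one subunit encoded on the light strand, differed by -0.30 (-0.634 to 0.0419). The embryo medians of the 12 were -0.038, 0.006 and 0.032 in the controls and 0.082, -0.008 and 0.134 in the mutants, with mutant 2 among the controls.

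The tissue is a mixture, and fewer cells of a type and less RNA per cell cannot be told apart in it. Several marker lists stood at different levels between the groups or in single embryos, with none of their genes past the test. All 12 neuron markers had differences above 0 (11 under each other scaling), with a median of 0.322. Their summed linear level was 64.0 to 68.3 in the controls and 71.9 to 101 in the mutants. The embryo medians of these markers overlapped, at 0.098, -0.010 and -0.111 in controls 1 to 3 and 0.049, 0.452 and 0.579 in mutants 1 to 3. All 6 basal progenitor markers were above 0 (median 0.337), with sums of 43.9 to 47.2 and 55.1 to 73.9. For radial glia 7 of 10 were above 0 (6 with median scaling), with a median of 0.156 and sums of 151 to 155 and 173 to 197. The differences ran from -0.925 (Emx2, all mutants lower) to 1.393 (Fabp7, all mutants higher). Hes1 (-0.185) and Hes5 (-0.105) also lay below 0. Sums weight the bright genes, among them Fabp7, at mean levels of 3.913 in the controls and 5.307 in the mutants. Meninges markers were uneven among the mutants, with embryo medians of 1.04, -0.24 and -0.75 in mutants 1 to 3 and sums of 19.4 to 29.3 in the controls and 14.1 to 42.9 in the mutants. The 8 erythroid markers had a median of -0.295, with mutant 3 at -0.96 and sums of 659 to 754 and 459 to 742. The 8 endothelial markers had a median of -0.131 and sums of 6.65 to 7.78 and 5.17 to 7.98, and the 8 microglial markers a median of -0.276 and sums of 2.52 to 2.91 and 1.88 to 3.17. Of the choroid plexus markers 5 of 8 were measured, with sums of 0.771 to 3.23 and 2.42 to 5.67. Their median difference was 1.314, the largest of the marker lists, with 4 above 0 and 1 below. The embryo medians were uneven, at 0.643, 0.017 and -0.589 in controls 1 to 3 and 1.789, 0.984 and -0.641 in mutants 1 to 3. The part of these cell types in the values above was not tested.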

How the data were processed

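Total RNA from 6 single embryos was measured on Agilent 1-colour arrays. The deposited scanner files hold each spot's intensity, which the authors read out with version 10.7.3.1 of Agilent Feature Extraction on array design 026655, per the file headers. The signal used is already background-subtracted but not yet scaled between arrays. The authors' deposited table gives log2 values, a log2 ratio, a linear ratio, a p-value and an fdr for mutant against control. The submitters' processing notes name limma without a version, and do not say what it was used for. The numbers of that table's columns do not follow the sample titles, so its columns were used by group.

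Outlier spots were left out, spots of a probe averaged, and log2 of the processed signal scaled by the 75th percentile of the non-control spots. Probes had to be well above background on 3 or more of the 6 arrays (26874 probes, 92 left out for a missing value), with the brightest probe of a gene, giving 21089 rows, 17099 of them named. The test was limma's (lmFit, then eBayes, version 3.58.1 under R 4.3.3), with Benjamini-Hochberg adjustment over all rows and a threshold of 0.05. In simulated data it recovered 4 of 50 rows changed by 0.5 log2 units, 31 of 50 changed by 1 and 47 of 50 changed by 2. It called 7 of 20889 unchanged rows. Differences of the size described here would thus mostly go uncalled. The rest was done in Python 3.11.15.

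Symbols came from both symbol columns of the table; the shorter of them holds 44 of the 86. The 86 genes have 123 probes; of 27 genes with several, 9 have probes that differ in sign (median range 0.041, largest 0.222). Probe positions are mm9, promoter sequences RefSeq GRCm38.p6. Named genes are, per complex, the 4 of smallest p, all members of the paralogous sets, and up to 3 of smallest p per list. Others (the 7 non-subunits, Ndufb5, Ndufs4 to Ndufs7, Uqcrc1, Uqcrfs1, Atp5a1, Atp5k, Nrf1, Gabpa, Yy1, Pprc1, Ppargc1b) were chosen after their values were seen. So were the markers Fabp7, Emx2, Hes1 and Hes5. Counts include 1 gene whose own values are not reported here. The genes and lists were chosen with earlier results of these data known.

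Litters pair the embryos, by the titles: the correlations of same-litter deviations from the group means were 0.308, 0.357 and 0.107 over 21089 rows, and those of other pairs -0.41 to 0.108. Alternatives tried were median scaling, quantile and cyclic loess normalization, normexp (offset 50, on the median signal and background), no filter, a filter on all 6 arrays, averaged probes per gene, a block by litter, a block by slide, single slides, array weights, a variance trend with robust fitting, a threshold of 0.1, the authors' log2 values, complexes by prefix alone, and leaving out each embryo.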

Additional observations from a re-analysis of the deposited data

How the results depend on the processing

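In every setting with a test, 0 of the 86 genes passed in either direction. With litter as a replicate block (the paired fit), the smallest adjusted p was 0.159, and 1 gene was higher and 2 lower at an unadjusted p under 0.05, as without it; it changed no call among the 86 genes, while over all rows it took the count from 7 to 0. The smallest adjusted p of a gene of the 86 lay under 0.1 with normexp (0.0826), trend with robust variance (0.0659), array weights (0.0964) and no filter (0.0986), and the count at the threshold stayed at 0. The count higher at the unadjusted level was 0 with median scaling, 2 with cyclic loess, normexp, the slide block and the authors' values, and 3 with trend and robust variance. The count lower was 1 with normexp, no filter, the authors' values and slide 2 alone. Leaving out each embryo gave 1 to 3 higher and 1 to 2 lower, and complex IV medians of 0.040 to 0.082.

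Median scaling moved the medians to -0.059 (all subunits), -0.072 (I), -0.104 (II), -0.071 (III), -0.009 (IV) and -0.051 (V), beside -0.063 for all rows. Slide 1 alone gave 0.086 (all), 0.080 (III), 0.131 (IV) and 0.126 (V), and slide 2 alone 0.041 (IV). Over all rows the fit called 7, and the block by litter or slide called 0, median scaling 23, quantile 15, cyclic loess 13, normexp 131, no filter 0, a filter on all 6 arrays 26, the mean of probes 2, trend and robust variance 143, array weights 19 and the authors' values 34; the causes were not tested.

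Signs turned only for genes that passed in no setting. With median scaling these were Sdhb (-0.0719), Sdhc (-0.0827), Uqcrq (-0.0199), Uqcr11 (-0.0385), Uqcrh (-0.0458), Cox8a (-0.00214), Cox4i1 (-0.0277), Cox6a1 (-0.0155), Cox6b1 (-0.00258), Cox7a1 (-6e-05), Cox7b (-0.0849), Ndufa4 (-0.0695), Atp5g2 (-0.0248) and Atp5g3 (-0.0859). With normexp they were Cox7b (-0.0122), Atp5g3 (-0.0206) and Atp5s (0.0642); with the mean of probes, Sdhb (-0.0207) and Sdhc (-0.00972). With array weights they were Sdhb (-0.00806), Sdhc (-0.00901), Uqcrh (-0.0218), Cox7b (-0.0221), Ndufa4 (-0.0179) and Atp5g3 (-0.0415). On slide 2 alone they were Sdhb (-0.0123), Sdhc (-0.00371), Uqcrh (-0.0533), Cox7b (-0.0479), Ndufa4 (-0.0204) and Atp5g3 (-0.0719), and on slide 1 alone Atp5s (0.168). Leaving out single embryos gave ranges across 0 for Sdhb (-0.00701 to 0.0540), Sdhc (-0.0361 to 0.0373), Uqcrh (-0.0648 to 0.0954), Cox7b (-0.0244 to 0.0230), Ndufa4 (-0.0609 to 0.0718), Ndufa4l2 (-0.0208 to 0.195), Atp5g3 (-0.0452 to 0.0507), Atp5s (-0.263 to 0.0994) and Atp5sl (-0.0885 to 0.0155). Ndufaf4 lay between -0.401 and -0.267, Ndufaf2 between -0.272 and -0.137 and Ndufaf3 between 0.152 and 0.259 over all settings.

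Depth on arrays limits the values through background: all 86 genes were above it on all 6 arrays, so the limit here is 3 embryos a group.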

Other observations

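A few subunits on the array have symbols that the authors' deposited table does not hold, so the choice by symbol did not take them in. Of these, Atp5md differed by 0.033 (SE 0.074), Atp5mpl by 0.17 (SE 0.13) and Ndufb1 by -0.10 (SE 0.15), with limma adjusted p-values of 0.848, 0.557 and 0.756. In the authors' deposited table, 3 of the 86 genes had an fdr, 0 of them under 0.05, and 3 had a p-value under 0.05. Those 3 were Ndufaf4 (0.00989), Ndufaf3 (0.0201) and Cox7a2l (0.0439). The largest disagreement between probes of a gene was that of Ndufb5, whose brightest probe differed by 0.012 and whose other probe by -0.21.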
